A study of Homo sapiens with 4 samples.

Results

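The genes described here are the human enzymes that write, maintain and remove methylation of cytosine in DNA: the DNA methyltransferases DNMT1, DNMT3A and DNMT3B, the UHRF proteins UHRF1 and UHRF2, the TET dioxygenases TET1, TET2 and TET3, and the glycosylase TDG. They were chosen by gene symbol, and all 9 had a row among the 23228 genes counted in each library and passed the filter on low counts, as did 14012 genes in all. Total RNA was sequenced from MDA-MB-231, an established triple negative breast cancer line, out of which cells with aldehyde dehydrogenase activity had been sorted with the ALDEFLUOR kit and grown in MammoCult medium as cancer stem cells. Libraries of 2 groups were compared, with 2 libraries each: cells stably carrying a lentiviral KDM1A shRNA, and cells stably carrying a lentiviral control shRNA. KDM1A, also called LSD1, is a lysine demethylase of histone H3 and the catalytic subunit of the CoREST repressor complex. The labels name 1 KDM1A shRNA vector and no rescue, so KDM1A loss, off-target action of that vector and differences between stable cultures cannot be told apart. The control shRNA libraries also held transcripts out of place in this line, described below. These go with group as well, so their part in any change cannot be told apart either. Whether the libraries of a group are separate cultures is not stated, and p-values therefore reflect only how far these libraries vary, perhaps technically.

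DNA methylation is copied at each replication and can be written anew or erased. DNMT1 restores methylation on the daughter strand after replication, guided by UHRF1, which binds hemimethylated CpG sites and ubiquitinates histone H3. DNMT3A and DNMT3B methylate sites that carried no mark, TET enzymes oxidise methylated cytosine using iron and alpha-ketoglutarate, and TDG cuts out the most oxidised forms for base excision repair. In mouse embryonic stem cells Kdm1a is known to demethylate the Dnmt1 protein and to keep it stable, an effect on protein that counts of RNA do not measure.

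The libraries held 23902900 and 25761937 gene reads in the KDM1A shRNA group and 26923678 and 24250377 in the control shRNA group. Levels are CPM, read counts relative to the library size with TMM scaling. Fold changes divide KDM1A shRNA by control shRNA and are given on the log2 scale with a standard error (SE). A gene was called at an adjusted p under 0.05, from edgeR's quasi-likelihood test with Benjamini-Hochberg adjustment over the 14012 genes. The targeted gene had 561 and 649 reads in KDM1A shRNA libraries 1 and 2, against 4660 and 4059 reads in control shRNA libraries 1 and 2. KDM1A thus stood at 14.2% of its control level (log2 fold change −2.81, SE 0.05, edgeR adjusted p = 2.2e-14), as the labels say. All 8 genes listed for this mesenchymal line were detected, among them VIM (2116 CPM in KDM1A shRNA and 1846 CPM in control shRNA). Of the 8, 3 were called higher and 5 lower, where 27.3% of all tested genes were higher and 28.8% lower. SPARC of this list, an extracellular matrix protein, had 23 and 30 reads in KDM1A shRNA, against 464 and 449 reads in control shRNA (5.92% of control). With most of its reads in control shRNA, SPARC is not taken as a sign of the line. Of the markers of other cell types, the defining blood genes PTPRC and CD3E had at most 4 reads in any library, and the summed level of 8 luminal epithelial genes was 413 and 429 CPM in KDM1A shRNA, against 326 and 338 CPM in control shRNA, mostly from KRT19. Of 6 tested luminal genes 4 were called higher and 2 lower (FOXA1 and ERBB3). Of 5 tested fibroblast genes 3 were higher (PDGFRB, COL1A1 and LUM) and 2 lower, while the sum over all 8 listed was 109 and 101 CPM in KDM1A shRNA against 146 and 142 CPM in control shRNA, mostly from DCN (55.0 CPM in KDM1A shRNA and 122.5 CPM in control shRNA). The sum over 7 endothelial genes was 128 and 125 CPM in KDM1A shRNA against 185 and 178 CPM in control shRNA. Of its 5 tested genes 5 were lower, where 28.8% of all tested genes were, and CLDN5 was at 0 in all. The 8 blood genes summed to 305 and 297 CPM in KDM1A shRNA and 260 and 258 CPM in control shRNA, nearly all from LCP1 and CD68. Of 3 tested blood genes 1 was called higher (LCP1) and 2 lower (CD14 and CD68).

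Of the 9 writers and erasers, 7 were called. UHRF1, DNMT1 and TET2 were higher and TET1, DNMT3A, DNMT3B and TDG lower in KDM1A shRNA, while UHRF2 and TET3 did not pass the threshold. These counts are read against a transcriptome in which 56.1% of the tested genes were called, 27.3% upward and 28.8% downward. For each of the 9, all KDM1A shRNA values lay on one side of all control values, but that held for 77.7% of all tested genes. The median log2 fold change of the 9 was −0.14, against −0.0047 over all tested genes. As bulk RNA was measured, fewer cells that express a gene and less RNA per cell cannot be told apart.

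**Figure D1:**
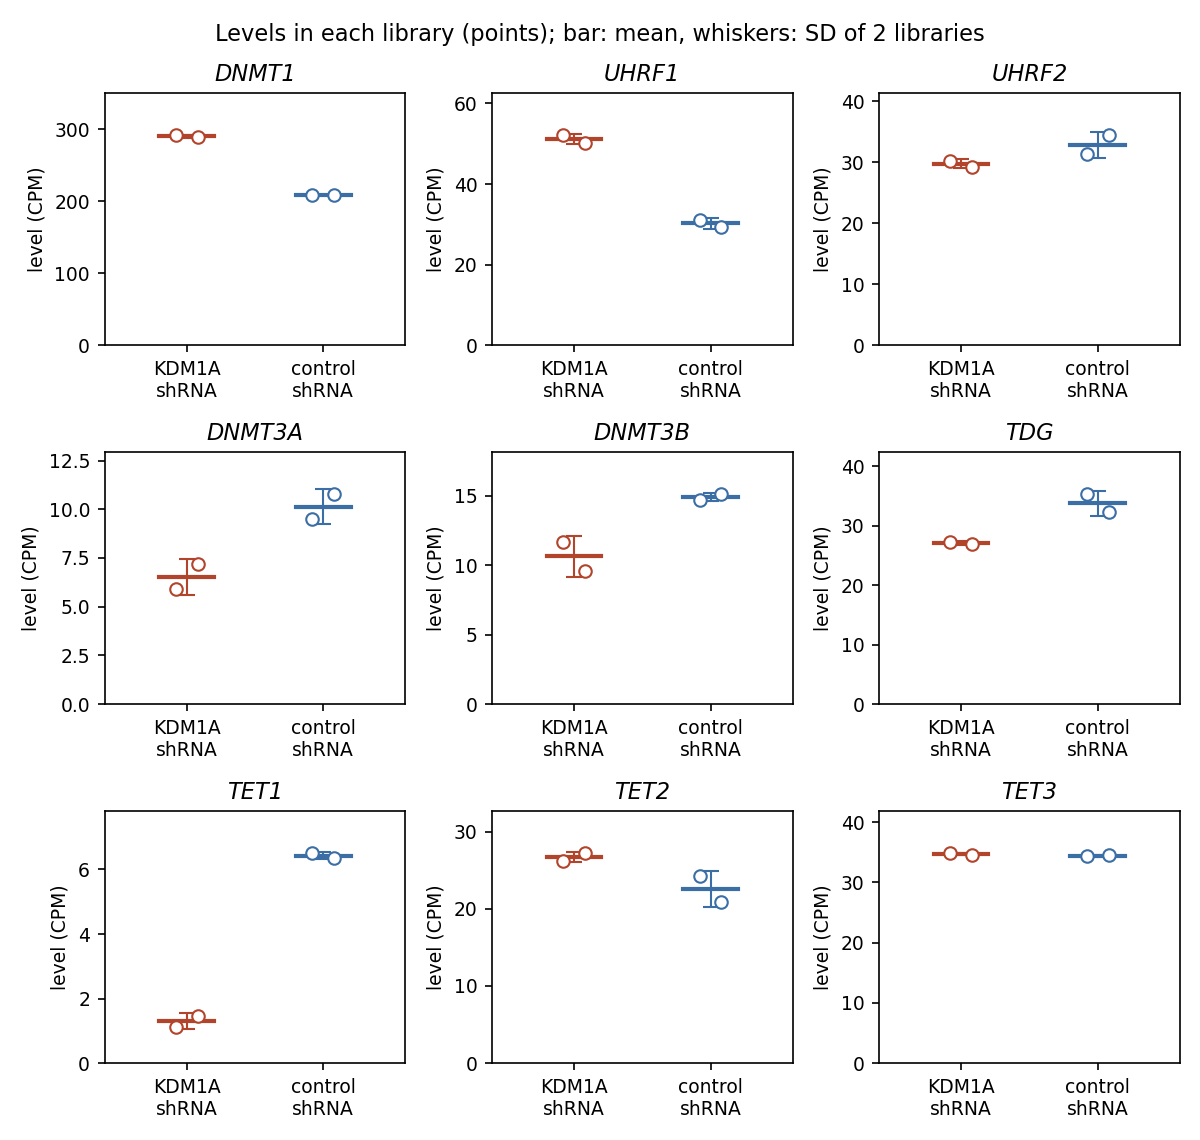
TMM-scaled CPM of the 9 genes in each library, with KDM1A shRNA at the left and control shRNA at the right of each panel; points are libraries, bars are means and whiskers are the SD of 2 libraries. UHRF1 had 52.1 and 50.3 CPM in KDM1A shRNA against 31.1 and 29.3 CPM in control shRNA, TET1 had 1.13 and 1.47 CPM against 6.50 and 6.35 CPM in control shRNA, and TET3 nearly coincides.

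**Figure D2:**
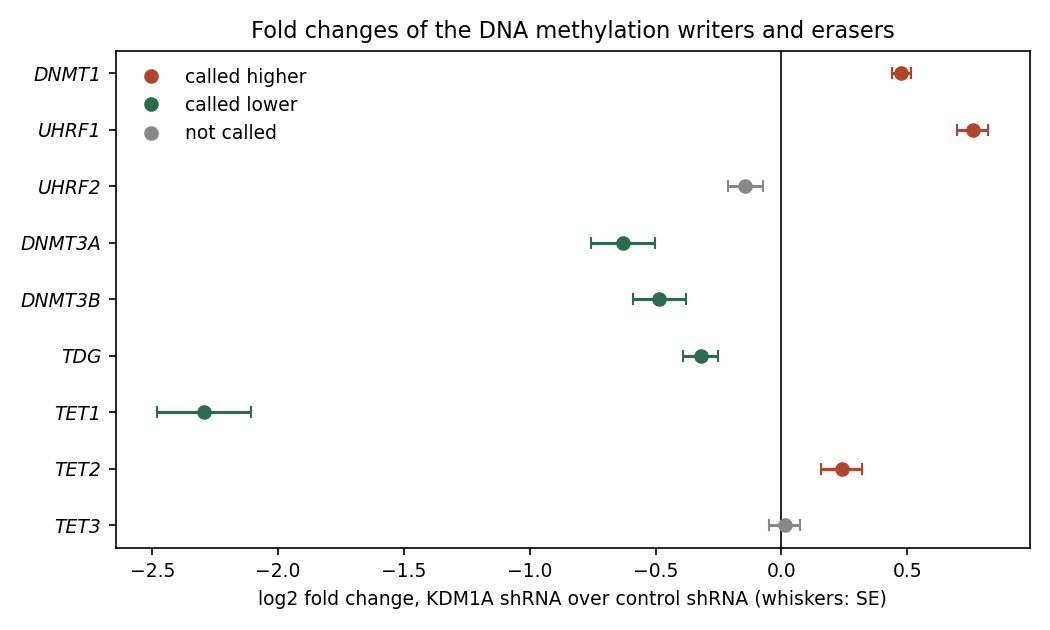
Log2 fold change of the 9 genes, KDM1A shRNA over control shRNA, with whiskers of 1 SE; colours mark genes called higher, called lower or not called by edgeR. TET1 stands at −2.29, and all other values lie between −0.63 and 0.76.

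UHRF1 and DNMT1, the pair that maintains methylation at replication, both rose. UHRF1 (chromosome 19, 4903092 to 4962165, plus strand, GRCh37) had 52.1 and 50.3 CPM in the KDM1A shRNA libraries, against 31.1 and 29.3 CPM in the control shRNA libraries. Both KDM1A shRNA libraries lay above both control libraries, and the gap was far wider than the SD within either group (1.25 CPM in KDM1A shRNA and 1.27 CPM in control shRNA). Its fold change was 1.69 (log2 0.76, SE 0.06, edgeR adjusted p = 1.1e-07), and 4.91% of tested genes had a log2 fold change at least as high. DNMT1 (chromosome 19, 10244018 to 10341962, minus strand), the most abundant of the 9, had 291 and 289 CPM in KDM1A shRNA and 209 and 208 CPM in control shRNA. Its rise was 1.39-fold (log2 0.48, SE 0.04, edgeR adjusted p = 5.8e-08), a size that 10.4% of tested genes reached or passed. UHRF2 (chromosome 9, 6413151 to 6507054, plus strand), the paralog of UHRF1 with the same domains that does not replace it in maintenance, had 30.3 and 29.3 CPM in KDM1A shRNA and 31.4 and 34.4 CPM in control shRNA. UHRF2 did not pass (log2 −0.14, SE 0.07, edgeR adjusted p = 0.092). It was called lower when control shRNA library 1 was left out (−0.21, adjusted p = 0.013), when libraries were scaled to housekeeping genes (−0.24, adjusted p = 0.0095) and when they were scaled to replication genes (−0.45, adjusted p = 7.9e-05). The largest adjusted p over its alternatives was 0.39.

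The promoters of UHRF1 and DNMT1, which moved together, are shown beside that of TET1, the member with the largest fall, as the 250 bases before the start of transcription. The sequences are RefSeq's (table of GRCh38.p14) and were placed in GRCh37 by exact match, at chr19:4909263-4909512 (plus strand) for UHRF1, chr19:10305630-10305879 (minus strand) for DNMT1 and chr10:70319844-70320093 (plus strand) for TET1. Each is written in the direction of the gene, in lower case, and capitals mark matches to letters bound by E2F factors, searched as TTTCCCGC, TTCCCGCC and TTTGGCGC on both strands.
UHRF1: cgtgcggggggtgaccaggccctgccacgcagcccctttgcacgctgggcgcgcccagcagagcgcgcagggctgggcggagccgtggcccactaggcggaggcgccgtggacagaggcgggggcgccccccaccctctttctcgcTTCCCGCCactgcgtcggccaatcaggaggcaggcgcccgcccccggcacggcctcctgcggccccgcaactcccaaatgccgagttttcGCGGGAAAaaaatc
DNMT1: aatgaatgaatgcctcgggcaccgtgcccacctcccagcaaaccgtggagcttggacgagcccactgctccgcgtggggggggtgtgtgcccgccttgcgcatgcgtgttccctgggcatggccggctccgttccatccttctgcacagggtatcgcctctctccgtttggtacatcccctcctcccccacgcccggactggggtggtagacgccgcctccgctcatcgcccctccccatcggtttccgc
TET1: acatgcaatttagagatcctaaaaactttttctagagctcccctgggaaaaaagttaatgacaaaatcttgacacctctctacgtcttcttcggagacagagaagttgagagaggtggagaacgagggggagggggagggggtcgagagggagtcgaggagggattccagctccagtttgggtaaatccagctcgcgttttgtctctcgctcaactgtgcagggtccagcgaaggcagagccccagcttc
The UHRF1 window held 2 matches, GCGGGAAA at 7 to 14 bases and TTCCCGCC at 97 to 104 bases before the start, and the windows of DNMT1 and TET1 held none. Such letters occurred in 3.94% of the 35114 windows of this length in the table. Over all listed starts of a gene they occurred in 4.78% of 27305 genes, in 1 of the 9 writers and erasers, and in 12 of the 27 replication genes of the list described next that the table held. The only listed start of DNMT3B lay 17467 bases from that of its canonical transcript, so its window there was not searched. Among lists described below, such letters occurred in 5 of 12 methyltransferase partners, 3 of 15 methionine and folate genes and 0 of 16 TET cofactor genes. The counts were 1 of 13 methyl-CpG readers, 1 of 13 base excision repair genes, 0 of 5 deaminase and GADD45 genes and 3 of 28 germline genes. A match is a description of the letters, and neither it nor its absence shows whether a factor was bound. The UHRF1 window also held 28 CpG sites and that of DNMT1 21, while TET1 had 9, against a median of 11 over the table. Which start the cells used was not measured.

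UHRF1 and DNMT1 were next set beside genes of DNA replication, because both are expressed with them in dividing cells. In a list of 31 replication and S phase genes, 22 were called higher and none lower (2 lower under housekeeping scaling), with a median log2 fold change of 0.26. Of all tested genes, 27.3% were called higher and 28.8% lower. Those with the smallest p were the helicase subunit MCM3 (0.64), the cyclin CCNE2 (0.82), the polymerase subunit POLA1 (0.72), the origin loading factor CDC6 (0.54), the transcription factor E2F1 (0.55) and the ribonucleotide reductase subunit RRM2 (0.41), with SEs of 0.04 to 0.07. Only CCNE2 exceeded UHRF1, and 6 of the 31 exceeded DNMT1. Within each library, UHRF1 had 17.3 and 16.6 reads per 1000 reads of this list in KDM1A shRNA, against 12.6 and 12.1 in control shRNA. DNMT1 had 96.7 and 95.3 reads per 1000 reads of the list in KDM1A shRNA, against 84.5 and 86.1 in control shRNA. Both ratios were higher in each KDM1A shRNA library than in each control library and need no normalization between libraries. No permutation test of these ratios was run, since the smallest two-sided p that an exact permutation of 2 against 2 libraries allows is 0.333. When libraries were scaled to the summed reads of the replication list instead, a choice made after the data were seen, the fitted changes were 0.45 for UHRF1 (edgeR adjusted p = 1.6e-05) and 0.17 for DNMT1 (edgeR adjusted p = 0.00088). How many cells were in S phase was not measured.

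The de novo methyltransferases both fell. DNMT3A (chromosome 2, 25450724 to 25565459, minus strand) had 141 and 185 reads, or 5.89 and 7.17 CPM, in KDM1A shRNA, and 255 and 261 reads, or 9.52 and 10.8 CPM, in control shRNA. The KDM1A shRNA libraries lay below both controls, although they also differed from each other. DNMT3A stood at 64.4% of its control level (log2 −0.63, SE 0.13, edgeR adjusted p = 0.00069). DNMT3B (chromosome 20, 31350191 to 31397165, plus strand) had 11.7 and 9.61 CPM in KDM1A shRNA, against 14.7 and 15.1 CPM in control shRNA. It stood at 71.6% of control (log2 −0.49, SE 0.11, edgeR adjusted p = 0.0012). The order of the KDM1A shRNA libraries was opposite for these genes, library 1 being the lower for DNMT3A and the higher for DNMT3B. Without library 2 the change of DNMT3B was −0.34 (adjusted p = 0.036), and without library 1 that of DNMT3A was −0.50 (adjusted p = 0.014). DNMT3A had 0.504 and 0.746 reads per DNMT3B read in KDM1A shRNA and 0.649 and 0.713 in control shRNA, so this ratio overlapped between groups. DNMT3L, the inactive cofactor of the de novo enzymes in germ cells, had 0 reads in every library, which allows up to 0.112 to 0.125 CPM depending on the library and covers counting error only.

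Among the TET dioxygenases, TET1 fell steeply, TET2 was slightly higher and TET3 did not pass the threshold. TET1 (chromosome 10, 70320094 to 70454244, plus strand) had 27 and 38 reads in KDM1A shRNA libraries 1 and 2, against 174 and 154 reads in control shRNA libraries 1 and 2. Both KDM1A shRNA libraries lay far below both controls. TET1 averaged 1.30 ± 0.24 CPM in KDM1A shRNA and 6.42 ± 0.11 CPM in control shRNA (SD, n = 2 libraries each), 20.2% of the control level (log2 −2.29, SE 0.19, edgeR adjusted p = 9.5e-08). A fall at least as large was seen in 4.08% of tested genes. TET2 (chromosome 4, 106067032 to 106200973, plus strand), often mutated in blood cancers, had 26.2 and 27.2 CPM in KDM1A shRNA and 24.2 and 20.9 CPM in control shRNA. The groups were separated by less than the distance between both controls (log2 0.24, SE 0.08, edgeR adjusted p = 0.021), and the call did not hold everywhere. The adjusted p of TET2 was 0.079 in DESeq2 and 0.14 under housekeeping scaling, and with edgeR it was 0.058, 0.12 and 0.15 on leaving out KDM1A shRNA library 1, KDM1A shRNA library 2 and control shRNA library 2, and under scaling to replication genes its log2 fold change was −0.065 (adjusted p = 0.48). TET3 (chromosome 2, 74212037 to 74335303, plus strand) had 34.8 and 34.6 CPM in KDM1A shRNA and 34.3 and 34.5 CPM in control shRNA (log2 0.01, SE 0.06, edgeR adjusted p = 0.88).

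The control shRNA libraries held transcripts out of place in this line, which were nearly absent from the KDM1A shRNA libraries. CDKN2A, MTAP and CDKN2B lie in a region of chromosome 9 that MDA-MB-231 is known to lack. They summed to 1.17 and 1.32 CPM in KDM1A shRNA libraries 1 and 2, against 23.2 and 25.4 CPM in control shRNA libraries 1 and 2. All 3 were called lower, where 28.8% of all tested genes were. A list of 10 genes typical of embryonic kidney lines, of the kind used to package lentivirus, summed to 10.02 and 9.57 CPM in KDM1A shRNA, of which GATA3 gave most, against 109 and 103 CPM in control shRNA. Of its 7 tested members, 6 were lower (LIN28B, NEFM, NEFL, LHX1, SALL1 and ITM2A), a call that 28.8% of all tested genes had. GATA3, which is also a luminal marker, was higher. LIN28A was at 0 in every library, and PAX2 was at 0 in KDM1A shRNA, against 6 and 5 reads in control shRNA. NEFL had 0 and 1 reads in KDM1A shRNA, against 116 and 99 reads in control shRNA. The other 5 lower genes kept between 0.498% (ITM2A) and 8.07% (LHX1) of their control level on average. LHX1 kept 13.1% and 3.04% in KDM1A shRNA libraries 1 and 2, and CDKN2A kept 4.99% on average. TET1 kept 17.6% and 22.9% in KDM1A shRNA libraries 1 and 2. How much of any of these levels came from the line itself was not measured. The part of the out-of-place transcripts in the change of TET1 or of the other writers and erasers was not tested. As these transcripts went with the control group, their part cannot be told apart from the group difference. Nor was their part tested for other deep falls, such as those of SPARC (5.92% of control), CBS (2.78%), PAGE5 (10.75%) and WT1 (23.8%).

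**Figure D3:**
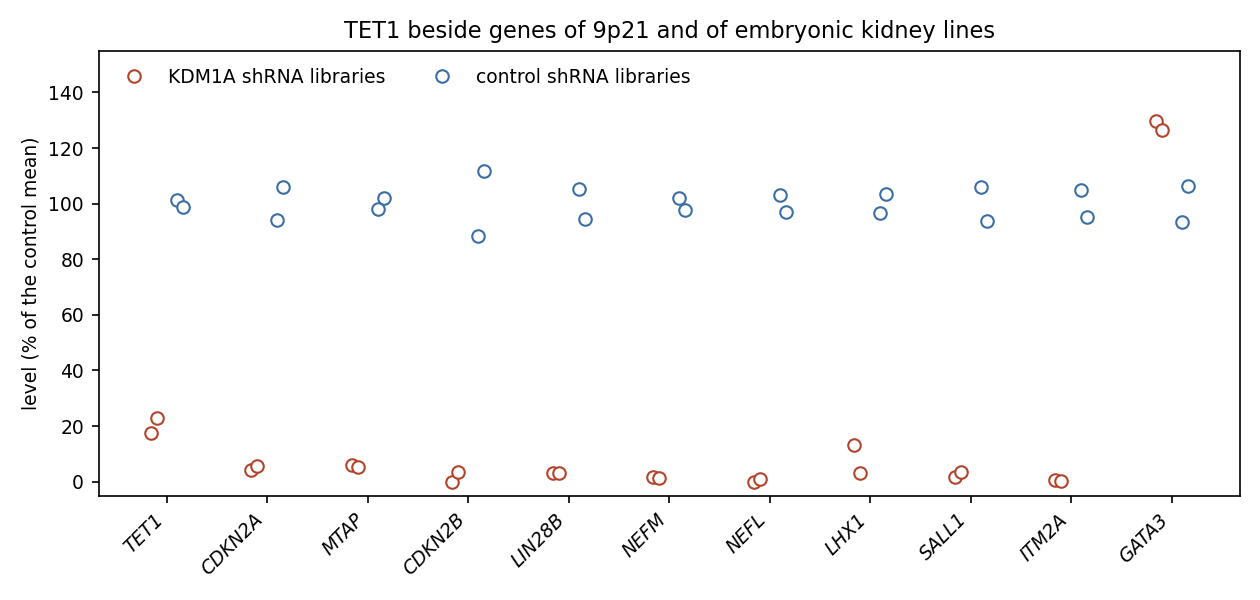
Level of TET1, of 3 genes of 9p21 and of the 7 tested genes of the embryonic kidney list in each library, in percent of the mean of the control shRNA libraries; KDM1A shRNA libraries stand left of the control libraries for each gene. TET1 kept 17.6% and 22.9% and LHX1 13.1% and 3.04% in KDM1A shRNA libraries 1 and 2, and GATA3 was higher than in control shRNA.

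TDG, the glycosylase that acts after the TET enzymes, was lower. TDG (chromosome 12, 104359600 to 104382652, plus strand) had 27.3 and 26.9 CPM in KDM1A shRNA and 35.3 and 32.3 CPM in control shRNA. All KDM1A shRNA values lay below all control values, at 80.1% of the control mean (log2 −0.32, SE 0.07, edgeR adjusted p = 0.0012). A processed pseudogene of TDG exists, and reads aligned to more than 1 place were not counted, so its level is uncertain, as is that of DNMT3A, which also has one. Of 17 genes of base excision repair, 5 were higher and 4 lower, with a median of −0.0069. Over all tested genes, 27.3% were higher and 28.8% lower. PARP1, which senses strand breaks, fell to 249 CPM in KDM1A shRNA, against 368 CPM in control shRNA (−0.56, SE 0.04), and the scaffold XRCC1 fell (−0.37, SE 0.07). The uracil glycosylase UNG (0.45), the flap endonuclease FEN1 (0.47), OGG1, which removes oxidised guanine (0.68), and NEIL3 (0.58) rose, with SEs of 0.05 to 0.08. The ligase LIG3, the polymerase POLB and SMUG1, MBD4 among the methyl-CpG readers, and the nuclease APEX1 did not pass.

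Shares within each family show the same shifts free of scaling between libraries. DNMT1 made up 94.3% and 94.5% of the reads of the 3 methyltransferases in KDM1A shRNA, against 89.6% and 89.0% in control shRNA. UHRF1 made up 63.2% of the reads of the UHRF pair in both KDM1A shRNA libraries, against 49.8% and 45.99% in control shRNA. TET1 made up 1.81% and 2.33% of TET reads in KDM1A shRNA, against 9.99% and 10.3% in control shRNA. The 95% Wilson intervals of each of these shares, which cover counting error only, did not overlap between groups, as for TET1 with 1.25% to 2.63% and 1.70% to 3.18% in KDM1A shRNA and 8.67% to 11.5% and 8.84% to 11.9% in control shRNA. TET2 took 42.2% and 42.98% of TET reads in KDM1A shRNA and 37.3% and 33.9% in control shRNA, and TET3 56.0% and 54.7% against 52.8% and 55.9% in control shRNA, overlapping between groups. Over both families, there were 0.201 and 0.207 TET reads per DNMT read in KDM1A shRNA and 0.279 and 0.264 in control shRNA. A shift in shares shows unequal change within a family, not which gene moved.

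**Figure D4:**
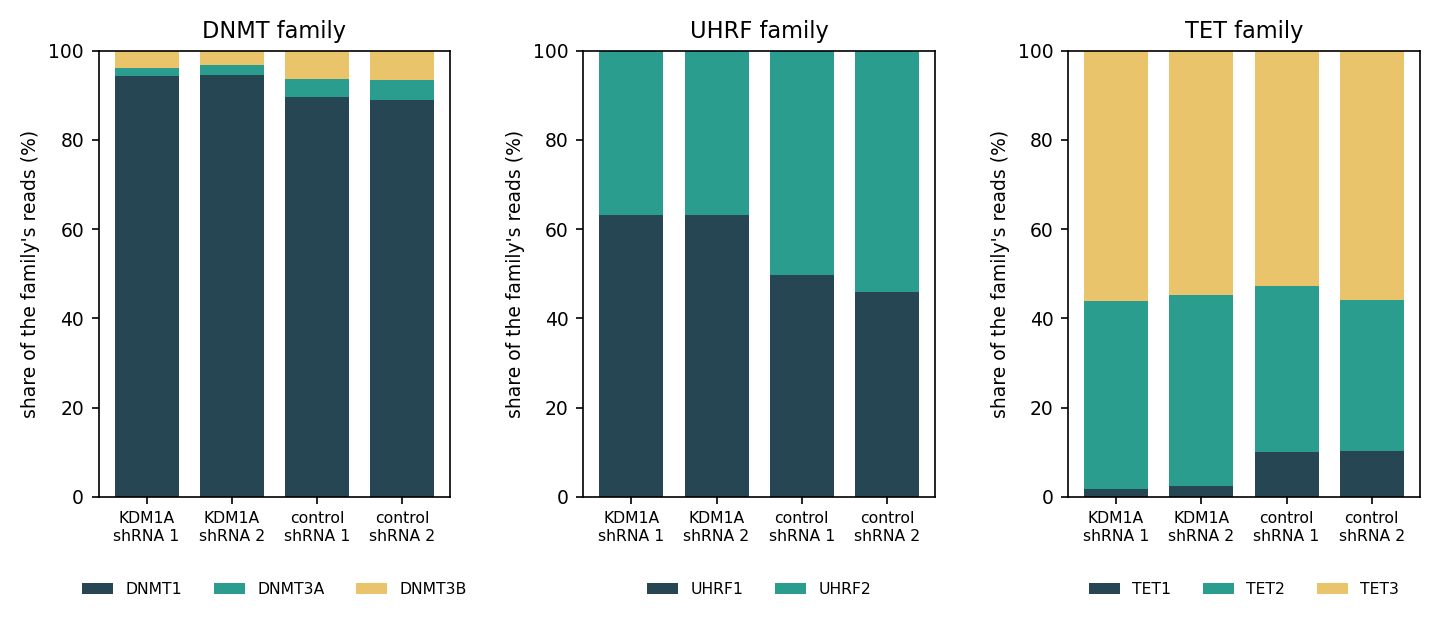
Share of each family's reads taken by its members, in percent, in each library, with the KDM1A shRNA libraries at the left of each panel. The UHRF1 share is 63.2% in both KDM1A shRNA libraries and 49.8% and 45.99% in control shRNA, and the TET1 share is 1.81% and 2.33% against 9.99% and 10.3%.

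Levels of different genes were compared per kilobase of the canonical GENCODE transcript. DNMT1 led with 55.0 ± 0.37 CPM per kilobase in KDM1A shRNA and 39.5 ± 0.076 in control shRNA (SD, n = 2 libraries each). In KDM1A shRNA it was followed by UHRF1 (13.1), TDG (8.50), UHRF2 (8.32), TET3 (2.88), TET2 (2.78), DNMT3B (2.46), DNMT3A (0.693) and TET1 (0.135 CPM per kilobase). The neighbours TDG and UHRF2 overlapped there. In control shRNA the order was DNMT1, TDG (10.6), UHRF2 (9.20), UHRF1 (7.75), DNMT3B (3.43), TET3 (2.85), TET2 (2.35), DNMT3A (1.08) and TET1 (0.668 CPM per kilobase), with no overlap between neighbours. UHRF1 thus took the second place in KDM1A shRNA, against the fourth place in control shRNA. Per kilobase of coding sequence it took the third place in KDM1A shRNA (21.5 CPM per kilobase), overlapping TDG (22.0 CPM per kilobase). By their means, DNMT3A and TET1 came last in both groups by either length. Per kilobase of coding sequence in control shRNA, however, DNMT3A (3.48 and 3.932) overlapped TET2 (4.035 and 3.48), and UHRF1 overlapped UHRF2. In KDM1A shRNA, TET2 overlapped DNMT3B by that length. The transcripts these cells use, and the gene models of the counting, may have other lengths.

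Of 13 tested partners of the methyltransferases, 7 were higher and 2 lower, with a median of 0.19, where 27.3% of all tested genes were higher. Housekeeping scaling gave 5 higher and 3 lower, and leaving out KDM1A shRNA library 2 gave 5 higher and 0 lower. Scaling to replication genes turned the balance, with 3 higher and 6 lower. HELLS, a chromatin remodeller needed for normal DNA methylation, had 1458 and 1443 reads in KDM1A shRNA and 937 and 832 reads in control shRNA (0.75, SE 0.06, edgeR adjusted p = 1.1e-07). KIAA0101, the PCNA-binding factor also called PAF15 that UHRF1 ubiquitinates, rose (0.69, SE 0.06), as did the ligase LIG1 (0.59), CDCA7L (0.37) and DMAP1 (0.39), a protein that binds DNMT1. The deubiquitinase USP7, which binds DNMT1 and UHRF1, fell (−0.20, SE 0.05), which did not pass once KDM1A shRNA library 2 was left out (edgeR adjusted p = 0.059). Of 14 readers of methylated CpG and their partners, 5 were higher and 3 lower, with a median of −0.041, but 3 were higher and 7 lower under housekeeping scaling. ZBTB33, also called Kaiso, fell to 49.6 CPM in KDM1A shRNA, against 75.5 CPM in control shRNA (−0.61, SE 0.05), and KLF4 fell (−0.34). ZBTB38 (0.35), MBD2 (0.33), MBD3 (0.26) and GATAD2A (0.17) rose, although GATAD2A did not pass under housekeeping scaling (0.076, adjusted p = 0.18) or without KDM1A shRNA library 1 (0.14, adjusted p = 0.11) and was −0.13 under scaling to replication genes.

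**Figure D5:**
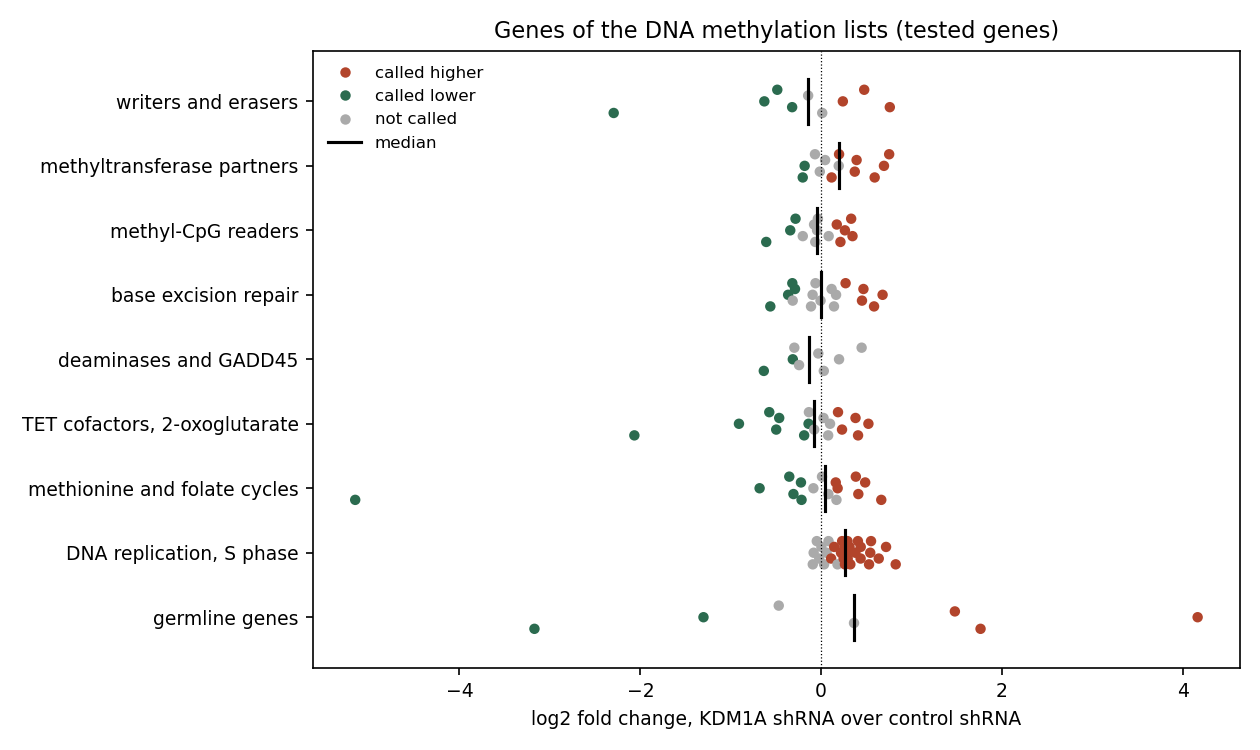
Log2 fold change, KDM1A shRNA over control shRNA, of the tested genes of each list; points are genes, coloured by call, and black bars are medians. The replication list has its median at 0.26 and no gene called lower, and the 9 writers and erasers have theirs at −0.14.

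Enzymes that supply the TET and DNMT reactions were called in both directions. So were tested genes at large, 27.3% higher and 28.8% lower. In the list of TET cofactors and alpha-ketoglutarate metabolism, 5 of 17 genes were higher and 7 lower, with a median of −0.077. The cytosolic isocitrate dehydrogenase IDH1 had 203 and 210 CPM in KDM1A shRNA and 143 and 144 CPM in control shRNA (0.52, SE 0.04, edgeR adjusted p = 5.5e-08). Its mitochondrial counterpart IDH2 had 316 and 387 reads in KDM1A shRNA and 724 and 630 reads in control shRNA (−0.91, SE 0.08, edgeR adjusted p = 4.3e-07). These isocitrate dehydrogenases, which make alpha-ketoglutarate, thus moved in opposite directions. GLUD1 (−0.50) fell, FH (0.38) and IDH3A (0.41) rose, and WT1, which recruits TET2, had 13 and 8 reads in KDM1A shRNA and 45 and 46 reads in control shRNA (−2.07, SE 0.33). WT1 kept 23.8% of its control level, and the part of the out-of-place transcripts in its fall was not tested. In the methionine and folate cycles, 6 of 16 genes were higher and 6 lower, with a median of 0.045. MAT2A, which makes the methyl donor S-adenosylmethionine, rose (0.41, SE 0.04), as did MTHFD1 (0.49) and TYMS (0.66), while MTHFD2 (−0.68) and SHMT2 (−0.31) fell. CBS, which draws homocysteine out of the cycle, had 13 and 15 reads in KDM1A shRNA and 523 and 507 reads in control shRNA (−5.15, SE 0.16). It kept 2.78% of its control level, within the span of the out-of-place transcripts described above, whose part in this fall was not tested. Among deaminases and GADD45 genes, none of 8 was higher and 2 were lower, GADD45A (−0.63, SE 0.06) and GADD45B (−0.31, SE 0.05), with a median of −0.14. APOBEC3C (0.20), APOBEC3G (−0.24), APOBEC3D (−0.30) and APOBEC3H (0.45) did not pass, and reads of such near-identical paralogs are uncertain.

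The genes of these lists whose pattern over the 4 libraries was closest to each called member were found by the distance between centred log2 CPM, among 123 genes. UHRF1 lay nearest HELLS, POLA1 and CCNE2 (distances of 0.066 to 0.11), and DNMT1 nearest UNG, MAT2A and IDH1 (0.053 to 0.065). TDG lay nearest MTR, GADD45B and APOBEC3G, TET2 nearest RRM1, MCM6 and CHAF1A, DNMT3A nearest GADD45A, MTHFD2 and CXXC5, and DNMT3B nearest D2HGDH, CXXC5 and GLUD1. TET1 had no close neighbour among these 123 genes, the nearest being WT1 at 0.88, MAGEA3 at 0.99 and IDH2 at 1.41. Of all tested genes, 4.08% fell at least as far as TET1, and the marker lists were not searched. With 2 groups of 2 libraries, these distances mostly follow the size of the group difference.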

How the data were processed

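RNA from 4 libraries was analysed, 2 of KDM1A shRNA and 2 of control shRNA. The authors deposited raw counts of reads for each gene symbol, library by library. The submitters' processing notes name hg19, HTSeq, TopHat2 2.0.8b and CASAVA 1.8.2. The sources used here do not give whether counting used strand. Overlapping antisense genes therefore cannot be told apart. No gene of GENCODE v44 (lifted to GRCh37) on the opposite strand overlapped the canonical exons of the 9 genes. On the same strand, long noncoding RNA genes without a row in the counts overlapped 390 bases of TET3 and 168 bases of TDG. Reads from these overlaps cannot be told apart. The 5 HTSeq summary lines, which held 38.9% to 41.0% of a file's total, stayed out of library sizes and tests, and reads with several alignments (29.7% to 32.2%) were not counted to genes.

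The test was that of edgeR 4.0.16, run on the counts in R 4.3.3 (TMM, filterByExpr with a minimum count of 10 and a minimum total of 15, quasi-likelihood F-test, group as the only term). SEs were taken as the size of the log2 fold change over the root of F. The procedure was tested on simulated data. Alternatives were RLE, upper quartile, library size and housekeeping scaling, 2 other filters, DESeq2 1.42.0, limma-voom (limma 3.58.1), the replicate number as a block and each library left out. Chi-square over its degrees of freedom, between the libraries of a group, was 1.60 in KDM1A shRNA and 3.97 in control shRNA, beyond sampling noise. The members and gene lists were chosen with earlier results of these data known. Named genes are KDM1A, the 9 members, up to 6 genes per list with the smallest p, the 3 nearest genes per called member, and the most abundant markers. Other genes (LIG3, POLB, SMUG1, MBD4, APEX1, DNMT3L, SPARC, PDGFRB, COL1A1, LUM, the genes of the 9p21 and embryonic kidney lists, and markers and germline genes at or near 0) were named after their values were seen.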

Additional observations from a re-analysis of the deposited data

How the results depend on the processing

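DNMT1, UHRF1, DNMT3A, DNMT3B and TDG kept their direction and their call in all 14 alternatives run, and TET1 in 13, since it fell under the filter of a mean of 5 CPM. Their log2 fold changes ranged from 0.17 to 0.49 for DNMT1, 0.45 to 0.80 for UHRF1, −0.93 to −0.50 for DNMT3A, −0.79 to −0.34 for DNMT3B, −0.63 to −0.25 for TDG and −2.60 to −2.12 for TET1. Between 6 and 8 of the 9 were called. TET3 was −0.014 under upper quartile scaling, −0.085 under housekeeping scaling, −0.010 with a mean of 5 CPM and −0.29 under scaling to replication genes (edgeR adjusted p = 0.000897). Scaling to replication genes, chosen after the data were seen, shifted the median of all genes by −0.31, gave 1203 genes higher and 8877 lower, and put TET2 at −0.065, APOBEC3C at −0.11, GATAD2A at −0.13 and MBD3 at −0.044. APOBEC3H ranged from −0.031 to 1.26 when single libraries were left out. In these cases the cause was not tested, beyond the shift itself. Genes called higher made up 48.7% of calls, and 32.6% under housekeeping scaling, which shifted all genes by −0.097. The replicate block called 8142 genes and the same number of members (7), where the fit without it called 7861. Deviations of libraries with the same number correlated at 0.015, which shows no sign of pairing but, with 2 libraries per group, cannot exclude it. DESeq2 called 6116 genes, and KDM1A ranged from −3.12 to −2.76. With 2 libraries per group, the low counts of DNMT3A and TET1 limit precision.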

Other observations

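Germline and cancer-testis genes, many of which are known to be silenced by DNA methylation in somatic cells, mostly stayed under the filter on low counts. Of 33 such genes, 14 had 0 reads in every library, among them DAZL, MAGEA1 and CTAG1B, and 7 were tested. MAGEB2 had 40 and 34 reads in KDM1A shRNA and 2 reads in each control shRNA library and was called higher (edgeR adjusted p = 3.6e-06). MAGEC2 had 5.22 and 4.96 CPM in KDM1A shRNA and 1.87 and 1.77 CPM in control shRNA (1.48, SE 0.18, edgeR adjusted p = 5.1e-06). STK31 was higher with 15 and 32 reads in KDM1A shRNA and 6 and 8 reads in control shRNA (1.76, SE 0.46), a call lost without KDM1A shRNA library 2 (edgeR adjusted p = 0.12). PAGE5 was lower, with 3 and 1 reads in KDM1A shRNA and 21 and 18 reads in control shRNA, and so was MAGEA3, with 15 and 28 reads against 58 and 51 reads in control shRNA (−1.30, SE 0.28). The part of the out-of-place transcripts of the control libraries in these falls was not tested. MAGEC1 did not pass (0.36, SE 0.26). The 7 tested genes, of which 3 were higher and 2 lower, had a median log2 fold change of 0.36, and near-identical MAGE copies make single values uncertain. Among all tested genes, 27.3% were higher and 28.8% lower. DNA methylation itself was not measured.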
